A study of Mus musculus with 16 samples.

Results

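Of 80367 ATAC-seq peaks listed as differing between non-NE and NE small cell lung cancer (SCLC) cells, 194 had their centre closest to the start site of Slit1, Slit2, Slit3, Robo1, Robo2, Ntn1, Dcc, Unc5b, Unc5c or Unc5d. These 10 genes code for 4 secreted guidance ligands and 6 of their receptors. Each peak was tied to a single protein-coding gene, the one whose transcription start site on mm10 was closest, and each of the 10 genes received at least 1 peak.

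The cells came from lung tumors of TKO;Hes1GFP/+ mice, which carry floxed alleles (fl/fl) of Rb, of p53 and of p130 and the Hes1GFP/+ reporter. Ad-CMV-Cre, a virus that drives Cre from a general promoter, was instilled into the trachea to delete Rb, p53 and p130. Tumors were induced at 8 to 12 weeks of age, and the tumors of each mouse were pooled 6 to 7 months later and sorted on GFP, which is made from the endogenous Hes1 locus. GFPhigh cells were the non-NE cells and GFPneg cells the NE cells, and both groups shared every allele and the virus. The description of the series gave 4 pairs of libraries from 3 mice, with 1 technical replicate, and each of the 8 libraries was read on 2 lanes. The authors listed 40828 peaks as more accessible in GFPhigh cells (opened, 50.8% of all listed) and 39539 as less accessible (closed, 49.2%). Each peak has a mean normalized count, which is the authors' mean over all libraries, so that no value of a single library, no SD and no depth per library were available here. Fewer cells of a type and less open chromatin per cell cannot be told apart in such sorted bulk samples.

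Slit proteins are secreted ligands that bind Robo receptors and repel growing axons and migrating cells. Netrin-1, the product of Ntn1, is a secreted, laminin-related cue that attracts through Dcc and repels when Unc5 receptors take part. Dcc and the Unc5 proteins are also known as dependence receptors, which can trigger cell death when no ligand is bound, and Robo receptors are known to be needed for the clustering of pulmonary neuroendocrine cells in the lung.

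The promoter sequences below show the DNA at which listed peaks of either direction lay over a start site of these genes. Each is the part of the peak just upstream of the 5′ end of the gene, read 5′ to 3′ on the strand of the gene from the GRCm38 genome (mm10). They come from chr5:47982988-47983137 (plus strand, Slit2), chr11:35121074-35121223 (plus, Slit3), chr3:141465066-141465215 (plus, Unc5c), chr8:29219637-29219786 (minus, Unc5d) and chr16:74411826-74411963 (minus, Robo2). Capitals mark a match to 1 of the 7 short strings described at the end.
Slit2 promoter, opened: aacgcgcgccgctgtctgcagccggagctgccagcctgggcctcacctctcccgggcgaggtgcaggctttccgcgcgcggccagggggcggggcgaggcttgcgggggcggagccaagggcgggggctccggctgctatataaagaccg
Slit3 promoter, opened: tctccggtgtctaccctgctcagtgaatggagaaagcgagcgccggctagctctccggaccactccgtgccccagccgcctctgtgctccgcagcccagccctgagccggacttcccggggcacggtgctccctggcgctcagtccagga
Unc5c promoter, closed: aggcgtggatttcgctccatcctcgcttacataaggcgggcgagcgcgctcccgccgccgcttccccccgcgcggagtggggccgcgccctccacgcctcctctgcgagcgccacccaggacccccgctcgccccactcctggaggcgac
Unc5d promoter, closed: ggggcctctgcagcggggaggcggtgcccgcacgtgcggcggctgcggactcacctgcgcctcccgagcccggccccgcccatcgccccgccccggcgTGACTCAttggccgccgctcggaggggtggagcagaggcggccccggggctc
Robo2 promoter, closed: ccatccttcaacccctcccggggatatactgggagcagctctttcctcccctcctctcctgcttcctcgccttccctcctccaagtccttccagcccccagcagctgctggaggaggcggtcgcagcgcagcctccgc
All 5 were rich in C and G, with a GC content of 74.7% for Slit2, 68.7% for Slit3, 74.7% for Unc5c, 80.7% for Unc5d and 65.9% for Robo2. The Slit2 and Unc5d stretches held 18 and 20 CpG dinucleotides, against 6 in that of Robo2. The Unc5d stretch alone of the 5 held a match, to the AP-1 string. The Unc5c stretch overlaps an exon of the noncoding transcript Gm15688.

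Away from the promoters, the central 200 bp of 4 strong peaks are shown, because distal sites made up most of the listed peaks. They are the opened Slit3 peak 114.0 kb upstream of the start (chr11:35007124-35007323, plus), the opened Ntn1 peak in an intron (chr11:68286031-68286230, minus), and the opened and the closed Robo1 peak with the highest mean counts, both intronic (chr16:72998731-72998930 and chr16:72924712-72924911, plus).
Slit3 upstream, opened: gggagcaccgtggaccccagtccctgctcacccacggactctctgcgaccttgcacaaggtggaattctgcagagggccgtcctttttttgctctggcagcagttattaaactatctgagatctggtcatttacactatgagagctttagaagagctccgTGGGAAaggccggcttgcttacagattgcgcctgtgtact
Ntn1 intron, opened: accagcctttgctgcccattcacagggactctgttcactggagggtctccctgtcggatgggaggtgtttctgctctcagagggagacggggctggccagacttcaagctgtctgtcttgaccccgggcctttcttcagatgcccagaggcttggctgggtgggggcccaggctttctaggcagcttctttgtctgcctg
Robo1 intron, opened: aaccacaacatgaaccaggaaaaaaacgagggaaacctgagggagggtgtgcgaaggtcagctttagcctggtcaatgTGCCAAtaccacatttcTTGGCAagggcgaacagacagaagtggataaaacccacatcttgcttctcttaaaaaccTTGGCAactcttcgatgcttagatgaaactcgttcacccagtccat
Robo1 intron, closed: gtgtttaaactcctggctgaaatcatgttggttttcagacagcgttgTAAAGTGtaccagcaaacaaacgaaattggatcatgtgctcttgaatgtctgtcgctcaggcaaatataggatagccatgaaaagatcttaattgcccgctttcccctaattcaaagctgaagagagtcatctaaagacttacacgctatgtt
The opened Robo1 stretch held 3 NFI half-sites, at positions 79, 96 and 155 counted from its 5′ end, the first of them on the other strand. The opened Slit3 stretch held an RBPJ core at position 161, and the closed Robo1 stretch an NKX2 string at position 48. The Ntn1 stretch held none of the strings.

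Ligand and receptor genes stood apart by list. The 4 ligand genes had 32 opened and 11 closed peaks, an opened share of 74.4% (95% Wilson interval 59.8 to 85.1%). The 6 receptor genes had 11 opened and 140 closed peaks, an opened share of 7.28% (4.12 to 12.6%). Over the 10 genes 43 peaks were opened and 151 closed (22.2% opened, 16.9 to 28.5%), and the opened share over all listed peaks of 50.8% lay outside each of these 3 intervals, though for the ligand genes not when peaks were counted by gene body. The intervals cover counting error only, since peaks of a gene are not replicates of a condition.

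**Figure D1:**
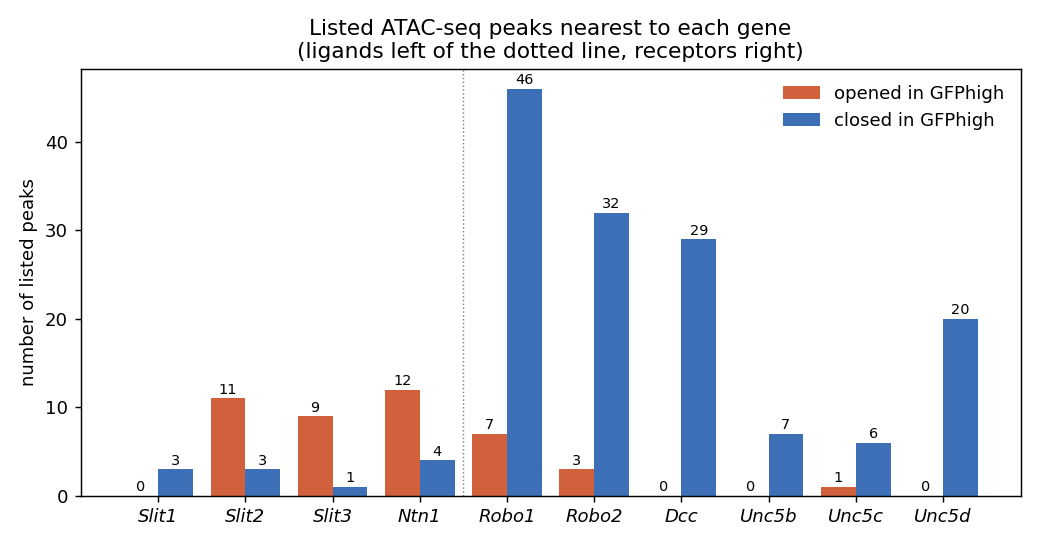
The bars give the number of listed peaks (vertical axis) nearest to each gene (horizontal axis), in red for opened and in blue for closed in GFPhigh cells. Slit2, Slit3 and Ntn1 had more opened peaks, while Slit1 and all 6 receptor genes had more closed peaks, with Robo1 the highest at 46 closed.

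The direction was not the same for all ligands, and for Slit1 and Slit3 it depended on how a peak was tied to a gene. Slit2, Slit3 and Ntn1 had 11, 9 and 12 opened peaks beside 3, 1 and 4 closed ones, whereas Slit1 had 0 opened and 3 closed. When every peak inside the gene or within 10 kb of it was counted instead, Slit3 had 7 opened and 13 closed peaks and Slit1 4 opened and 3 closed. The difference at Slit3 came from 13 closed peaks inside the gene whose nearest start site was that of Pank3, a pantothenate kinase gene beyond its 3′ end. Counted by gene body, the ligand genes had 25 opened and 18 closed peaks, and the interval of their share (58.1%, 43.3 to 71.6%) then held the 50.8% of all listed peaks. The receptor genes had 9 opened and 106 closed peaks by that count (7.83%, 4.17 to 14.2%).

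Slit2, the ligand best known for repelling axons at the midline, had an opened peak directly over its start site. This promoter peak (chr5:47982905-47983373) had a mean normalized count of 261 and its centre 1 bp from a start site. Of the other 10 opened peaks, 7 lay 474 to 703 kb upstream in an intergenic stretch, and 2 of these had mean counts of 237 and 218, close to that of the promoter. Those 2 were picked after their values were seen, as were the other peaks named for a mean count of at least 100. All 3 closed Slit2 peaks lay in the same upstream stretch, the strongest at 35.8 normalized counts and 502.9 kb from the start.

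The listed peaks of other genes around Slit2 were mostly closed. Of 240 listed peaks of other genes within 5 Mb of it, 29.6% were opened, against 78.6% of its own 14 peaks (52.4 to 92.4%). The share of the surroundings lay below the interval of the gene. This contrast depended on how peaks were tied to the gene. By gene body and 10 kb around it, Slit2 had 2 opened and 1 closed peak, whose interval (20.8 to 93.9%) held the 29.6%. Within 100 kb of a start site it had 4 opened and 0 closed peaks.

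Slit3, the third of the Slit ligands, held the opened peak with the highest mean count among the 10 genes. This peak (chr11:35006829-35007618) reached 323 normalized counts and lay 114.0 kb upstream of the start. A run of 3 opened peaks followed at 55.1 to 44.4 kb upstream, 1 of them at 174 normalized counts. A further run of 3 covered the start site from 1.63 kb upstream to 0.461 kb downstream.

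In that last run, 2 peaks counted as promoter peaks of Slit3, both opened. The first (chr11:35120909-35121520) had a mean count of 76.2 and its centre 9 bp upstream of the start, and the second (chr11:35121618-35121752) had a mean count of 11.3. The only closed peak given to Slit3 (chr11:35012087-35012409, mean count 28.8) sat 109.0 kb upstream, between opened ones. Its surroundings within 5 Mb were 44.4% opened.

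Ntn1 had opened peaks at 2 of its start sites, and its opened peaks filled the body of the gene. The peak at the inner start site (chr11:68386685-68387359) had a mean count of 113, and that at the outer start site (chr11:68400107-68400621) a mean count of 53.7. All 12 opened peaks lay inside the gene, the strongest in an intron 100.7 kb downstream of the nearest start (chr11:68285717-68286545, 213 normalized counts). Of the 4 closed peaks, 3 lay beyond the 3′ end at 187.5 to 191.6 kb, and the strongest of the 4 was intronic (chr11:68333502-68333973, mean count 60.2).

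The chromosomal surroundings of Ntn1 were opened as well. Within 5 Mb of Ntn1, 84.0% of 526 listed peaks of other genes were opened, a value inside the interval of Ntn1's own 75.0% (50.5 to 89.8%).

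Slit1, the Slit ligand made mainly in the nervous system, had 3 closed peaks with mean counts of 16.3 to 32.5 and no peak within 1 kb of a start site. The nearest (chr19:41737852-41738121) was in an intron 5.51 kb downstream of the start, and the strongest (chr19:41693732-41694096) in an intron 49.6 kb downstream. Its 0 opened of 3 peaks set no limit on the opened share, and its surroundings were 67.0% opened.

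**Figure D2:**
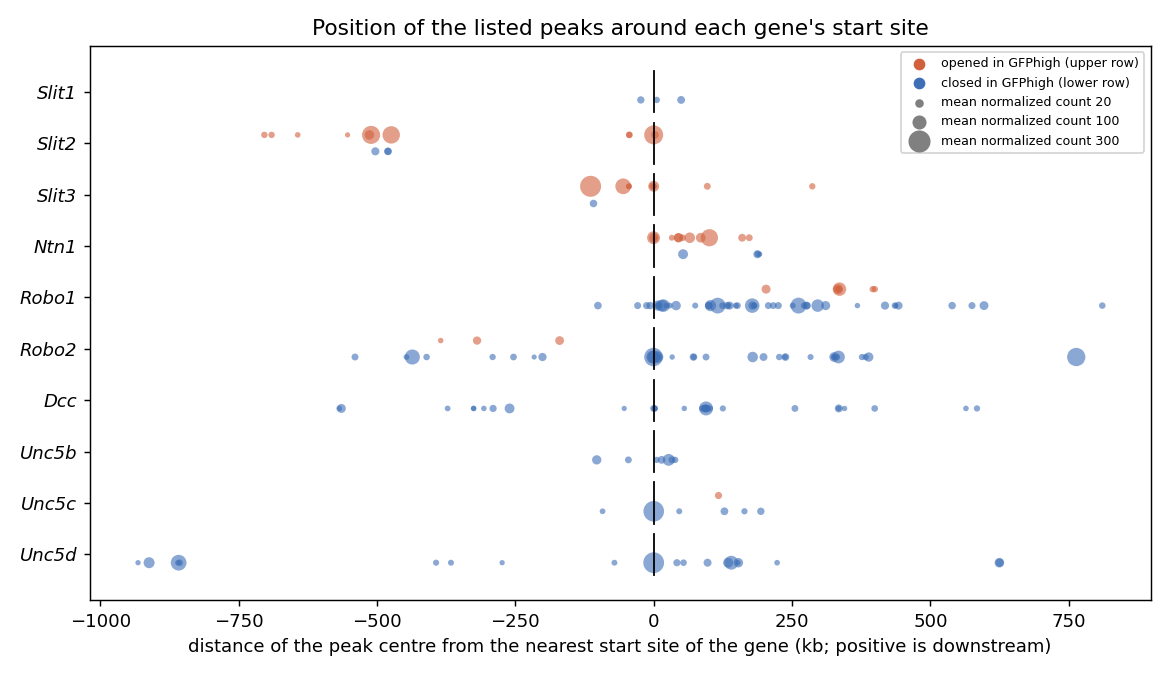
Each circle is 1 listed peak, placed by the distance of its centre from the nearest start site of its gene in kb (horizontal axis, positive downstream) and by gene (vertical axis). Circle area grows with the mean normalized count, red circles in the upper row of a gene are opened in GFPhigh cells and blue circles in the lower row closed, and the black bars mark the start site. Closed peaks of Robo2, Dcc and Unc5d spread far to both sides of the start, and those of Robo1 reach 101 kb upstream and 811 kb downstream. No opened peak assigned to a receptor gene by the nearest start lies within 100 kb of that start.

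Robo1, a Slit receptor found in many tissues, had more listed peaks than any other of the 10 genes. Its 53 peaks were exceeded by 18 of the 14591 protein-coding genes that had any, whose median was 3. Of the 53, 46 were closed, and 38 of these lay inside the full extent of the gene, which begins at position 72308306 of chromosome 16. The 38 include the 4 closed peaks upstream of the coding start used here, which were classed as intergenic. No listed peak fell within 1 kb of its coding start in the basic annotation.

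The closed Robo1 peaks came in groups along the gene. With peaks at most 10 kb apart joined, 7 closed peaks lay 7.31 to 29.0 kb downstream of the start and 5 at 115.6 to 137.1 kb. The closed peak with the highest mean count (chr16:72924511-72925113) had 179 normalized counts at 261.7 kb and headed a group of 4 closed peaks. The peak nearest to the start (chr16:72656651-72656987) was closed as well, with a mean count of 27.5 at 6.33 kb upstream.

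Against this pattern, 4 of the 7 opened Robo1 peaks formed a group of their own. It covered 3.79 kb of an intron at 332.2 to 335.7 kb downstream and held no closed peak. Its strongest member (chr16:72998551-72999110) had a mean count of 125, and it is the peak whose sequence with 3 NFI half-sites is printed above. All 7 opened peaks lay over 100 kb from the start. Further coding transcripts of Robo1 start upstream in the comprehensive annotation, and the closed peak furthest upstream (chr16:72562269-72562528), picked after its position was seen, had its centre 1301 bp before 1 of these starts, at position 72563700 of chromosome 16.

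Robo2, a second Slit receptor, had closed peaks over its promoter. The 2 promoter peaks were the closed peak with the highest mean count of the gene (chr16:74411478-74411963, 249 normalized counts) and one 634 bp downstream of a start (chr16:74410176-74410379, 118 normalized counts). They belonged to a group of 5 closed peaks from 1.90 kb upstream to 9.53 kb downstream. Of all 35 Robo2 peaks, 32 were closed.

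The 3 opened Robo2 peaks all lay upstream, where the annotations differ. The strongest (chr16:74580955-74581531) had a mean count of 44.4 and was also the opened peak nearest to the start, at 170.0 kb. RefSeq places a further start of Robo2 at position 75092770 of chromosome 16, and all 13 peaks upstream of the start used here, 3 opened and 10 closed, lie between the start sites and thus inside that longer transcript. A closed peak of 242 normalized counts lay 763.5 kb downstream, beyond the 3′ end (chr16:73647131-73647715).

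The surroundings of both Robo genes, which lie next to each other on chromosome 16, were themselves mostly closed. Of the listed peaks of genes other than these 10 within 5 Mb, 35.0% were opened around Robo1 and 35.9% around Robo2. These values were above the intervals of the genes' own shares, which were 13.2% (6.55 to 24.8%) for Robo1 and 8.57% (2.96 to 22.4%) for Robo2.

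Dcc, the netrin receptor, had closed peaks only. All 29 of its peaks were closed, and 0 opened of 29 allows an opened share of up to 10.3%. They included a weak promoter peak (chr18:72351125-72351311) with a mean count of 20.4, its centre 149 bp upstream of the start. The largest group lay inside the gene, where 8 closed peaks covered 14.2 kb at 87.8 to 102 kb downstream of the start, and the strongest Dcc peak (chr18:72256230-72256521, mean count 135) was among them.

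Most Dcc peaks were weak. Their median mean count of 15.4 was the lowest among the closed peaks of the 10 genes, and 11 of the 29 reached a mean count of 20. Its surroundings were 42.6% opened.

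Unc5d, a receptor that also binds Flrt proteins, held the peak with the highest mean count among the 151 closed peaks. This promoter peak (chr8:29219164-29219950) had 316 normalized counts and its centre 12 bp from a start site. All 20 Unc5d peaks were closed, which allows an opened share of up to 15.0%. Beside the promoter, 3 closed peaks lay 856 to 859 kb upstream within 3.17 kb, 1 of them with a mean count of 175.

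Unc5c, another netrin receptor of the repelling kind, had a promoter peak of nearly the same height. It was closed, spanned 984 bp (chr3:141464818-141465801) and had a mean count of 310. The other 5 closed peaks stayed at or below 31.3 normalized counts. The single opened peak (chr3:141581120-141581388, mean count 24.5) was intronic and 115.7 kb downstream.

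Unc5b, known from blood vessel guidance, had 7 closed peaks, 0 opened and none at its promoter, whereas 3 opened and 6 closed peaks lay in the gene or within 10 kb of it. The strongest (chr10:60803898-60804682) was intronic, at 27.1 kb downstream with a mean count of 93.4. The nearest (chr10:60826048-60826217) was at 5.25 kb with a mean count of 15.3. The 3 Unc5 genes together had 1 opened and 33 closed peaks, and the surroundings within 5 Mb were 53.2% opened for Unc5b, 32.5% for Unc5c and 43.8% for Unc5d.

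**Figure D3:**
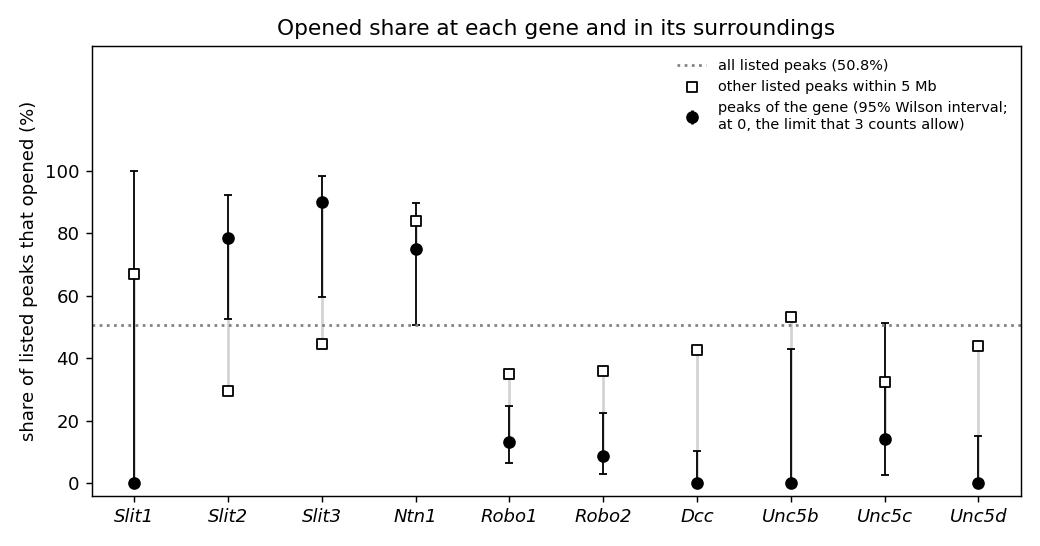
Filled circles give the share of each gene's listed peaks that opened in GFPhigh cells in percent (vertical axis), with 95% Wilson intervals or, at 0, the limit that 3 counts allow, and open squares the share among the listed peaks of other genes within 5 Mb. The dotted line marks all listed peaks at 50.8%, and the squares lie outside the bars for all genes but Slit1, Ntn1 and Unc5c. With peaks counted by gene body instead, they lie outside for Robo1, Robo2, Dcc and Unc5d.

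Slit1, Dcc, Unc5b and Unc5d had peaks of 1 direction only. Of 652 protein-coding genes with at least 20 listed peaks, 7.98% had closed peaks only, Dcc and Unc5d among them, and 1.53% opened peaks only. Of 3684 genes with at least 7 listed peaks, a group that includes Unc5b, 11.8% had closed and 9.26% opened peaks only.

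Peaks at the genes' own promoters were divided between ligands and receptors. A promoter peak had its centre within 1 kb of an annotated start, and the genes had 5 opened and 7 closed ones. Of the 7 closed, 1 peak of Ntn1 and 1 of Unc5d lay at starts of noncoding genes far from their own. Of the 10 peaks at the genes' own promoters, 5 were opened, all of ligand genes (Slit2, 2 at Slit3, 2 at Ntn1), and 5 were closed, all of receptor genes (2 at Robo2, and 1 each at Dcc, Unc5c and Unc5d). Over all listed promoter peaks 70.4% were opened and 29.6% closed, and over those at the promoter of their own gene 74.3% and 25.7%. Slit1, Robo1 and Unc5b had no listed promoter peak, and nothing can be said here of how accessible their promoters were, since only peaks past the authors' limits were analysed.

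Among all genes, closed promoters were the less frequent kind. Of 7507 protein-coding genes with a listed peak at their own promoter, 75.4% had opened ones only and 22.4% closed ones only. Slit2, Slit3 and Ntn1 belonged to the first group, and Robo2, Dcc, Unc5c and Unc5d to the second.

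**Figure D4:**
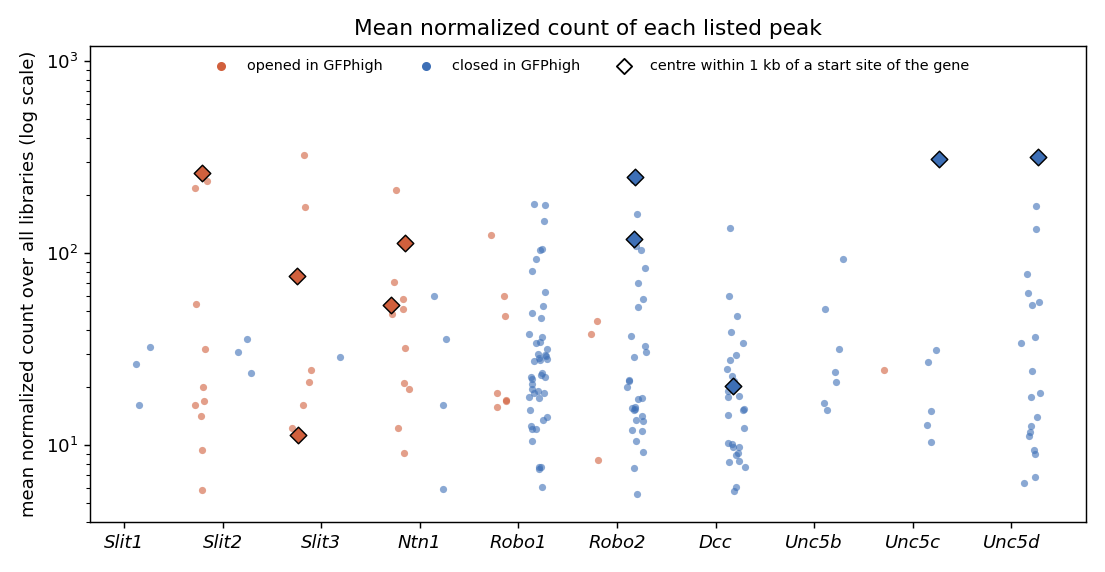
Each point is 1 listed peak, with its mean normalized count over all libraries on a log scale (vertical axis) by gene (horizontal axis), in red for opened and in blue for closed peaks. Diamonds mark peaks within 1 kb of a start site of the gene, which reach 261 at Slit2, 310 at Unc5c and 316 at Unc5d, while the promoter peak of Dcc stays at 20.4.

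The strongest peaks were divided likewise. Of the 24 peaks with a mean count of at least 100, a limit chosen after the values were seen, 7 belonged to ligand genes and all 7 were opened (64.6 to 100%). The other 17 belonged to receptor genes, of which 16 were closed and 1, at Robo1, was opened (5.88%, 1.05 to 27.0%). Over all listed peaks, 74.1% of the 14041 at or above that count were opened, a share inside the interval of the ligand genes and outside that of the receptor genes.

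The peaks of these genes lay far from start sites. The median distance was 114 kb for opened and 181 kb for closed peaks, against 17.5 and 42.4 kb over all listed peaks. Far peaks were more often closed in the whole data set too, since 32.5% of all listed peaks over 100 kb from a coding start were opened. Among the receptor genes' peaks that far out, 10.8% of 102 were opened (6.13 to 18.3%), and among those of the ligand genes 63.2% of 19 (41.0 to 80.9%), so that the share over all far peaks was outside both intervals.

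Closer to the start, no peak assigned to a receptor gene was on the opened list. Within 100 kb, the receptor genes had 0 opened and 49 closed peaks, which allows an opened share of up to 6.12%. The 3 opened peaks in or within 10 kb of Unc5b are not among these, as the nearest start of each was that of another gene. For the 1 inside Unc5b this was Slc29a3, a nucleoside transporter gene. The ligand genes had 20 opened and 4 closed, and all listed peaks within 100 kb of a coding start were 55.7% opened.

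By class, width and height the peaks compared with all peaks of their lists as follows. Of the closed peaks, 68.9% were intronic, compared with 50.1% of all closed peaks. Of the opened peaks, 44.2% were intronic and 44.2% intergenic, compared with 43.6% and 30.6% of all opened peaks. Opened peaks had a median width of 300 bp and closed ones of 227 bp, against 300 and 248 bp over all, and the median mean count was 24.5 and 22.0, against 40.7 and 25.8.

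The other genes of the pathway leaned to the closed side less strongly. A list of 41 further genes, which holds other netrins and receptors, ligands that bind them and proteins that act downstream, had 150 opened and 256 closed peaks (36.9% opened, 32.4 to 41.7%). Of the 36 genes with peaks, 12 had more opened and 22 more closed peaks, and 2 had equal numbers. The same split over all genes was not counted, so these numbers have no share to be set beside. Of all 14591 protein-coding genes with a listed peak, 21.7% had closed peaks only and 36.9% opened peaks only. Of the 5 genes with the most peaks, Flrt3, which binds Unc5 receptors and Robo1, had 13 opened and 30 closed peaks.

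The other 4 of these genes were found on both sides. Trio, a signalling protein downstream of Dcc, had 6 opened and 26 closed peaks, and Fyn, a kinase that phosphorylates Dcc, had 2 opened and 27 closed. Ablim1, an actin-binding protein linked to netrin signalling, had 27 opened and 2 closed peaks, and Rgma, a ligand of neogenin, had 16 opened and 8 closed. Named after their values were seen, the receptor paralogs Robo3 and Unc5a had 6 and 8 closed peaks and no opened one, the related Unc5cl had 0 opened and 14 closed, and the Dcc relative Neo1 had 3 opened and 0 closed. The other netrin and netrin-G genes with listed peaks did not share the opened lean of Ntn1, with 5 opened and 10 closed peaks at Ntn4, 1 and 6 at Ntng1, and 0 and 1 at Ntn5.

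The semaphorin, plexin and ephrin system, another set of guidance ligands and receptors, showed no lean. Its 558 listed peaks were split into 279 opened and 279 closed (50.0%, 45.9 to 54.1%), a share that lay outside the interval of the 10 genes.

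Short strings for 7 transcription factor families were searched on both strands in the central 200 bp of each peak. The strings were CATTCC for TEAD, TGANTCA for AP-1, TGTTTAC for FOX, CACTTNA for NKX2, TTGGCA for NFI half-sites, TGGGAA for RBPJ and GCTGTCC for REST half-sites. The AP-1 string was in 22.5% of the 151 closed peaks and in 11.6% of the 43 opened peaks, close to the 26.4% and 10.6% over all closed and all opened peaks. The TEAD string was in 4 of 43 opened peaks, 9.30% (3.68 to 21.6%), against 18.2% of all opened peaks, and in 7.95% of closed peaks, against 8.77%. Over whole peaks it was in 23.3% of the opened peaks, against 25.4% of all opened peaks.

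Each of the 14 shares had an interval that held the share over all peaks of the same list. With 43 opened peaks the intervals were wide, so they cannot show whether a string set the peaks of these genes apart. The NKX2 string was in 25.6% of opened and 19.2% of closed peaks, against 18.6% and 14.9% over all. The REST half-site was in 0 of 43 opened peaks, which allows a share of up to 6.98%, and in 3.97% of closed peaks, against 3.60% and 4.98%. A match is a description of the letters and says nothing about binding.

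**Figure D5:**
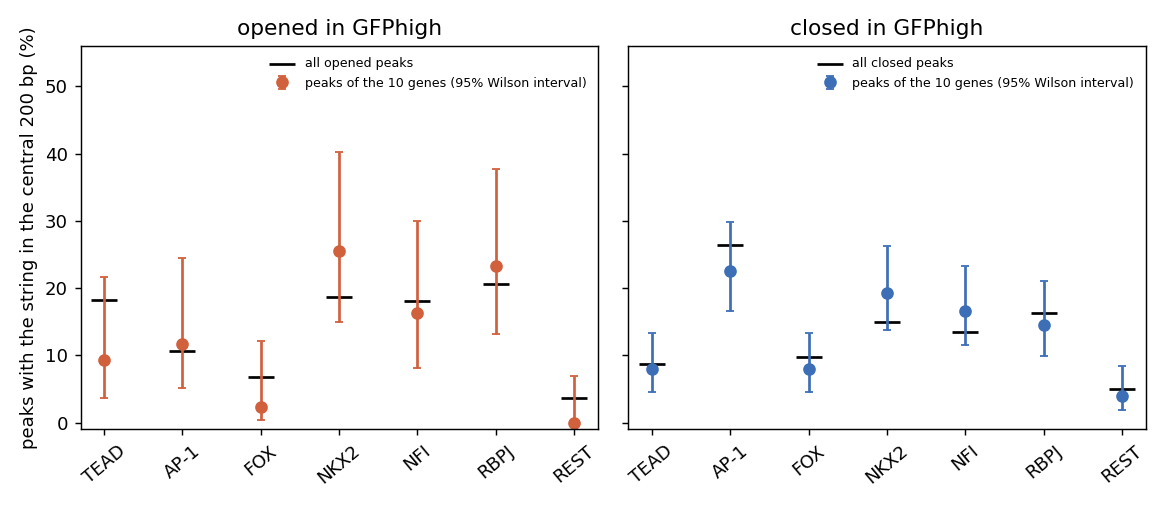
Circles give the share of the genes' peaks with each string in the central 200 bp in percent (vertical axis) by factor family (horizontal axis), with 95% Wilson intervals (at 0, the limit that 3 counts allow), for opened peaks on the left and closed peaks on the right. Black dashes give the share over all peaks of the same list, and each lies inside the interval beside it.

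Neuroendocrine markers had mostly closed and non-NE markers mostly opened peaks, and markers of other cell types were on the lists too. Of 8 neuroendocrine marker genes, 7 had listed peaks and Syp had none. These 7 had 11 opened and 62 closed peaks, with more closed peaks at 6 of 7. Chga was the exception, with 8 opened and 6 closed, and Insm1 gave 28 of the closed ones. The 7 club and non-NE markers had 65 opened and 20 closed, with more opened peaks at 7 of 7. They include Hes1, whose reporter defined the sort. Without it the other 6 had 39 opened and 9 closed, with more opened peaks at 6 of 6. Leukocyte markers had 13 opened and 5 closed peaks, endothelial markers 10 and 35, and fibroblast markers 7 and 7. Single genes made up much of these counts, with 11 opened and 5 closed at Ptprc and 2 opened and 23 closed at Cdh5. The fibroblast markers went opposite ways, with 7 opened and 0 closed at Col1a1, 0 and 2 at Col1a2 and 0 and 5 at Pdgfra. By the study's methods the cells were also stained for CD45, CD31 and TER-119, surface proteins of leukocytes, endothelium and red blood cells that serve for negative selection, and for CD24. The part of other cell types in the values at the ligand and receptor genes was not tested.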

How the data were processed

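ATAC-seq was performed on GFPhigh and GFPneg SCLC cells (8 libraries on 2 lanes, 16 runs, grouped by the labelled Hes1-GFP status). The authors trimmed and aligned the reads (Bowtie2 2.3.4.1, mm10), called peaks with MACS2, merged them over samples, counted reads per merged peak and compared the groups with DESeq2 1.28.1. They deposited the opened and the closed peaks as separate lists. The deposited signal is 1 number per peak, the authors' mean of size-factor-normalized counts across libraries. Further columns hold the log2 fold change, its standard error, the test statistic and p-values of the authors' comparison; they were not used. Depth per library is unknown, and no test over samples could be made.

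Peaks were assigned, in Python 3.11.15 with numpy 2.4.6 and pandas 2.3.3, to the nearest protein-coding start site of the basic GENCODE annotation of GRCm38 (mm10), and classed by their centre as promoter (within 1 kb of any start), exon, intron or intergenic. Shares have Wilson intervals at 95%, and a count of 0 is given the limit that 3 counts allow. Code was tested on simulated data. The promoter peaks of each gene, the peak nearest the start and the opened and closed peak of highest mean count could be named, and the 5 pathway genes with most peaks. The genes, lists (pathway, semaphorin system, cell type markers) and strings were chosen with earlier results of these data known. Figures were drawn with matplotlib 3.10.9.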

Additional observations from a re-analysis of the deposited data

How the results depend on the processing

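No paired analysis was possible because the files used hold no values of single samples, and for the same reason no library could be left out. The opened share of the 194 peaks, 22.2%, ranged from 20.3 to 27.4% over 6 other ways of choosing peaks, and 1 of these, the comprehensive annotation, was chosen after the data were seen. Counts fell where peaks were removed: 16 opened and 63 closed with the nearest start of any annotated gene, noncoding ones included, 20 and 53 with a limit of 100 kb, and 26 and 83 with a mean count of at least 20. The ligand and receptor shares under these settings were added after the data were seen. The ligand share fell from 74.4 to 58.1% with gene bodies and 10 kb around them, and the receptor share of 7.28% became 1.67% with any annotated gene and 0% within 100 kb. All 10 genes kept the list with more peaks under 5 of the 6 settings, and Slit1 and Slit3 changed it under the gene body setting. With 3 kb in place of 1 kb, peaks near a start of any gene went from 5 to 8 opened and from 7 to 19 closed, and those near the gene's own start from 5 to 8 in both lists. Searched over whole peaks, the TEAD string was in 23.3% of opened peaks (25.4% over all opened peaks), and the RBPJ string in 39.5% of opened and 21.9% of closed peaks (30.6 and 21.5% over all). Of 120 counts for single genes under other settings, 41 moved by over 1.5 times.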
